A study of Mus musculus with 18 samples.

Results

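Trophoblast genes and simple keratins were followed across mouse embryonic stem cells of 2 lines at 3 titled times. The set held 10 named genes: the transcription factor genes Cdx2, Gata3, Tfap2a, Elf5, Ascl2 and Hand1, the placental gene Plac1, and the keratin genes Krt7, Krt8 and Krt18. They were found among the array's probes by their RefSeq transcript names, a step that used no measured values. The genes themselves were chosen with earlier results of these data known. Of these 10 genes 9 were among the 16022 genes tested, and Elf5 was left out of the main test because 1 of its spots was marked as an outlier.

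Trophoblast is the outer, epithelial lineage of the early mouse embryo and goes on to form the fetal part of the placenta. Cdx2, Gata3, Tfap2a and Elf5 encode transcription factors of trophectoderm and trophoblast stem cells, Ascl2 acts in the spongiotrophoblast layer, and Hand1 acts in trophoblast giant cells and also in embryonic mesoderm. Keratin filaments are built from pairs of a type I and a type II chain: Krt18 encodes the type I partner of the type II chains encoded by Krt8 and Krt7, and the Krt8 and Krt18 pair is the first to appear in simple epithelia. Embryonic stem cells come from the inner cell mass and normally keep trophoblast genes low. Esrrb encodes a nuclear receptor of the pluripotency network that also acts in trophoblast stem cells.

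Per the labels, all cells were Esrrb knockout embryonic stem cells of strain 129SV that expressed Raf-ErT2, a Raf kinase switched on by 4-hydroxytamoxifen (4OHT), which in turn activates Mek and ERK. The KO groups had received an empty vector and the Rescue groups an Esrrb transgene, and each line was sampled under the titles 0h, 8h and 8h2h, which makes 6 groups of 3 arrays. Cells had been grown in serum with LIF and 2 uM of the GSK3 inhibitor Chir99021, and then for 24 h in serum with LIF and 250 nM of the FGF receptor inhibitor PD173074. The protocol lists untreated cells (0h), an 8 h exposure to 250 nM 4OHT, and the same exposure with a Mek inhibitor added for the next 2 h. On 12 arrays the title and the source name disagreed on the Mek inhibitor: the source name gave it for the arrays titled 8h and did not give it for those titled 8h2h. Groups are therefore named from the title alone, and the words KO and Rescue below mean the arrays labelled so. The labels give neither the number of clones in a line nor whether the replicates a, b and c were separate cultures, so p-values measure the spread between these arrays.

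Values are log2 processed signals minus the array's 75th percentile, so that 0 is the level of that percentile and 1 unit is a change by a factor of 2 relative to it. They are compared between groups for 1 probe at a time. Exceptions are the summed marker levels, in which bright probes weigh most, and the Krt18 to Krt8 ratio. The likeness of genes was taken after centring each on its own mean. Replicate b of KO 8h2h stood apart from the other arrays, with 88.6% of probes well above background, against 46.6% to 56.4% on the other KO arrays and 53.6% to 63.8% on the Rescue arrays. Esrrb itself gave signal in all groups, averaging 5.03 ± 0.27, 3.75 ± 0.31 and 3.85 ± 0.54 in KO at 0h, 8h and 8h2h and 4.40 ± 0.41, 1.91 ± 0.21 and 1.62 ± 0.13 in Rescue (SD, n = 3). That is higher in KO in 9 of 9 pairs of arrays from 1 slide and time, and neither the position of the probe relative to the deletion nor whether the transgene carries its target is given in the sources used here, so this signal does not check the line labels. All 8 embryonic stem cell markers (among them Pou5f1, Sox2 and Nanog) were well above background on every array. In such bulk RNA, fewer cells of a type and less RNA per cell cannot be told apart.

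The sequences just upstream of the transcription start are shown for the 3 keratins, whose levels differed between the lines as described below, and for Cdx2, whose difference between the lines closed. Each is the 250 bases before a RefSeq start site, read 5′ to 3′ on the gene's own strand from RefSeq with build GRCm38.p6, and capitals mark matches to GCCNNNGGC, a motif bound by AP-2 factors, the family of Tfap2a.
Krt8 (chr15:102004343-102004592, minus strand): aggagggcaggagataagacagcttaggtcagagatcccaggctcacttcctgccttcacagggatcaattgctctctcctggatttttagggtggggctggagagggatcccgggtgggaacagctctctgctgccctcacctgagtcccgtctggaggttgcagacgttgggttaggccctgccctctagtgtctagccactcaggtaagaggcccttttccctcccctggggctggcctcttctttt
Krt18 (chr15:102027966-102028215, plus strand): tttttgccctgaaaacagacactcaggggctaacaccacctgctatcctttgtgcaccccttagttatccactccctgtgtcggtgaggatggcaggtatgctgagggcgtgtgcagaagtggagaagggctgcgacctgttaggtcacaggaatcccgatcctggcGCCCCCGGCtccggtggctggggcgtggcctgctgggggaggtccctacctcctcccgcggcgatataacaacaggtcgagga
Krt7 (chr15:101412153-101412402, plus strand): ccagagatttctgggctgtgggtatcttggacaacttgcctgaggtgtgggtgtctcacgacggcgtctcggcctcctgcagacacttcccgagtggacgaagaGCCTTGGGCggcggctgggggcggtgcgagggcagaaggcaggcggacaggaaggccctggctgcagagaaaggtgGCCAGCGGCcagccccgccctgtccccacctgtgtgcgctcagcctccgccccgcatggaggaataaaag
Cdx2 (chr5:147307250-147307499, minus strand): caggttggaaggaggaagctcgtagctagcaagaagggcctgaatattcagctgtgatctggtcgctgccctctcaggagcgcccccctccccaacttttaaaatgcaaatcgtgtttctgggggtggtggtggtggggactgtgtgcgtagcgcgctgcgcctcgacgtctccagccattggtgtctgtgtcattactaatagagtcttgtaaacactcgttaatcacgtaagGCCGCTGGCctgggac
Krt8 and Krt18 lie close together on chromosome 15 and are read on opposite strands. Windows were on hand for 9 of the 10 genes, 12 windows in all. The AP-2 motif stood in 4 of the 12 windows (those of Cdx2, Gata3, Krt7 and Krt18), and in 13.7% of the 32851 windows of all genes. On either strand the ESRRB motif AAGGTCA, the AP-1 motif TGANTCA and the ETS motif CCGGAAG were in 0 of the 12 windows, and in 4.08%, 6.75% and 6.91% of all windows. The TEAD motif GGAATG stood in 1 window, of Elf5, and in 12.6% of all. A match is a stretch of letters and not a measured binding site, and the motifs were chosen after the expression values had been seen.

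At 0h most of the trophoblast genes and keratins were lower in KO than in Rescue. Of the 9 tested, 8 were lower in KO 0h than in Rescue 0h and 0 were higher, at an adjusted p below 0.05 in limma, where 18.4% of all tested genes were called, 11.3% as lower and 7.09% as higher. The median difference of the 9 was -3.44 on the log2 scale, beside -0.02 for all tested genes. The KO and Rescue arrays did not overlap for the 8 called genes. Within each of the 3 slides all 9 genes were lower in KO. The shares of all tested genes that did either were not counted, so these counts add no test. On slides a, b and c the differences were -3.34, -3.46 and -3.53 for Krt8 and -3.65, -3.47 and -3.94 for Krt18.

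Cdx2, the factor that sets trophectoderm apart from the inner cell mass, had -5.41, -4.37 and -6.37 on the arrays of KO 0h, against -1.87, -2.03 and -2.08 in Rescue 0h. None of the 3 KO arrays was well above background, so the KO level is only a bound. Taking for each such array the higher of the gene's own signal and the lowest signal of any probe well above background, Cdx2 was at least 5.46-fold lower in KO (means -5.38 and -1.99, adjusted p = 1.74e-05 in limma). Each fold given below with the words at least follows this rule and depends on it.

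Hand1 and Plac1 were likewise not well above background on any KO 0h array, and well above it on every Rescue 0h array. Hand1 averaged -5.95 ± 1.22 in KO and -1.99 ± 0.78 in Rescue (SD, n = 3), which is at least 5.46-fold lower (adjusted p = 0.000109 in limma). Plac1, which encodes a placental protein of trophoblast cells, averaged -6.39 ± 0.27 in KO and -0.46 ± 0.30 in Rescue, at least 15.8-fold lower (adjusted p = 0.000112). The second kept Plac1 probe was not well above background on any KO 0h array either, and lay between -1.49 and -1.22 on the Rescue 0h arrays. Under normexp background correction, whose offset of 50 is added to every signal and so draws dim values together, the differences were -1.39 for Cdx2, -1.40 for Hand1 and -2.48 for Plac1, all still called.

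Gata3, a trophectoderm factor, had -0.02, 1.02 and -0.17 in KO 0h, against 3.26, 2.97 and 3.08 in Rescue 0h. It was measured on every array, and its highest KO value lay well below its lowest Rescue value. The difference was -2.83 ± 0.24 (SE, 7.10-fold lower, adjusted p = 5.55e-06 in limma). Ascl2, a factor of spongiotrophoblast, had 1.34, 1.93 and 1.74 in KO 0h, against 3.98, 4.10 and 3.86 in Rescue 0h. Its groups were separate too, and it was 4.96-fold lower (-2.31 ± 0.30, adjusted p = 0.000104).

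The 3 keratins followed. Krt8 had 2.50, 2.22 and 1.84 in KO 0h, against 5.83, 5.68 and 5.36 in Rescue 0h, a difference of -3.44 ± 0.24 (SE, 10.9-fold lower, adjusted p = 1.61e-06 in limma). Krt18 had 3.05, 3.27 and 2.62 in KO 0h, against 6.70, 6.73 and 6.56 in Rescue 0h, a difference of -3.68 ± 0.15 (12.9-fold lower, adjusted p = 1.52e-08). Both partner chains were thus readable in KO cells, at levels clearly apart from Rescue. Krt7, a type II chain of simple and glandular epithelia, had -3.93, -2.67 and -4.72 in KO 0h, the last not well above background, against 0.61, 0.65 and 0.61 in Rescue 0h. The KO arrays scattered widely while the Rescue arrays lay within a narrow range, and the difference was -4.40 ± 0.74 (21.1-fold lower, adjusted p = 0.000906; -2.91 and still called under normexp).

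Tfap2a, which encodes the AP-2 alpha factor of trophectoderm and surface ectoderm, was the exception. It had -2.51, -3.08 and -3.10 in KO 0h, against -2.35, -2.52 and -2.45 in Rescue 0h, so that one KO array fell within the Rescue range. The difference of -0.46 ± 0.19 (SE) did not pass the test (adjusted p = 0.115 in limma), although it passed with the slide as a block (adjusted p = 0.0175) and without replicate a of KO 0h (-0.65, adjusted p = 0.0351). Tfap2a was read from the brighter of its 2 kept probes, and the other gave -0.17 ± 0.36 (adjusted p = 0.816).

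**Figure D1:**
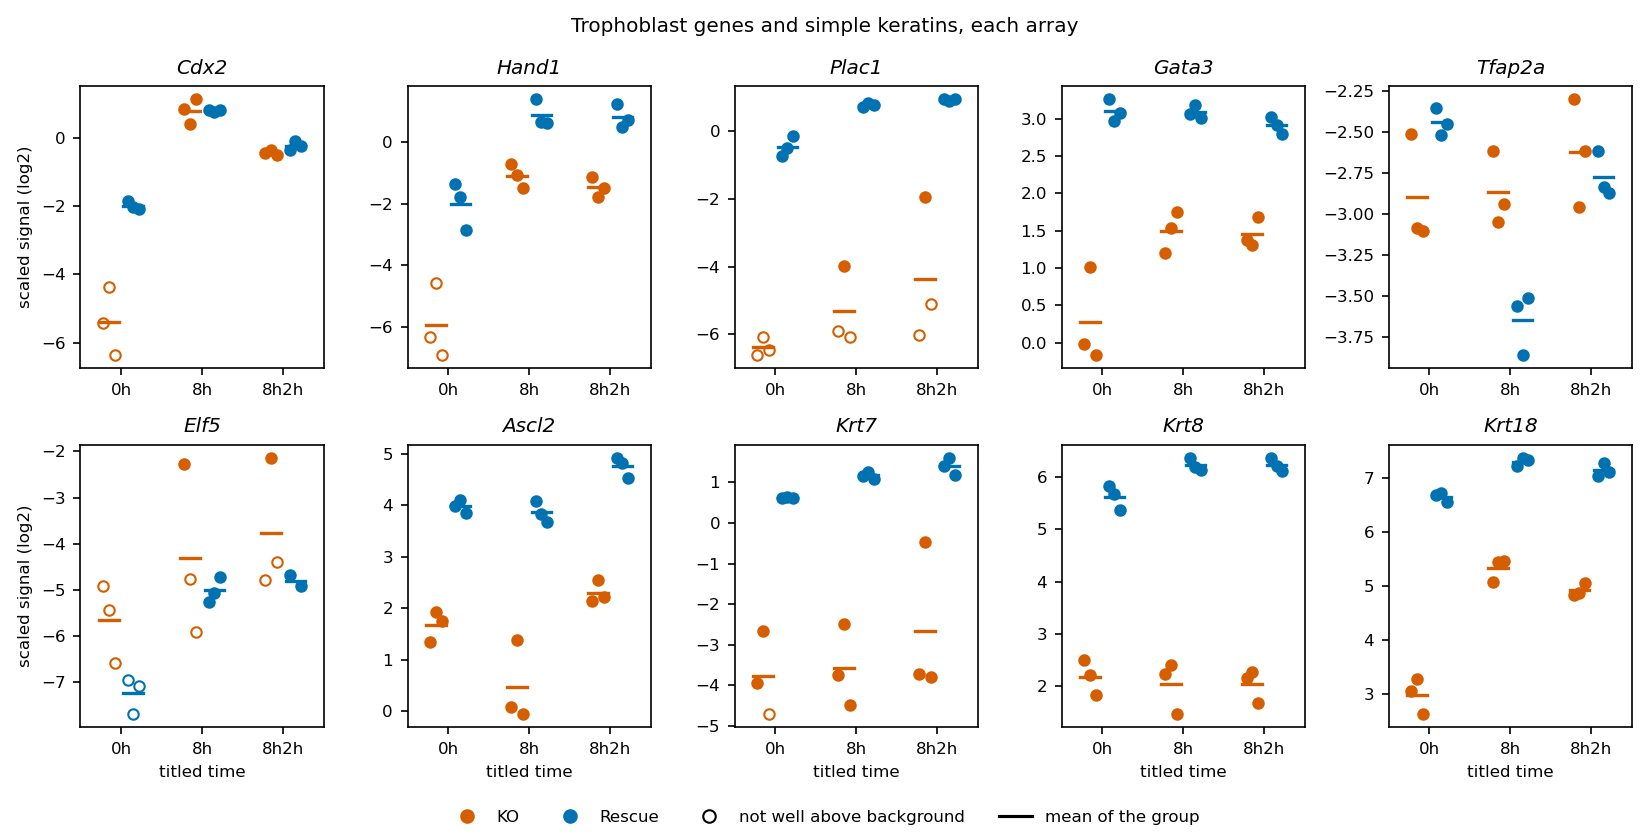
Scaled signal (log2) of the 10 genes on each array, by titled time, with KO left of Rescue, open circles for arrays not well above background and bars for group means; the axes differ between panels, and the Elf5 panel lacks 1 Rescue 8h2h array whose spot was marked as an outlier. Cdx2 met Rescue at 8h (means 0.79 in both lines), Krt18 rose in KO to 5.33 at 8h, and Krt8 averaged 2.18 and 2.04 in KO at 0h and 8h, below every Rescue array.

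At 8h the picture split by gene. Of the 9 genes 7 were lower and 1 was higher in KO 8h than in Rescue 8h, where 21.5% of all tested genes were called (9.16% higher, 12.4% lower), and Cdx2 no longer differed beyond the spread. Cdx2 had 0.83, 0.39 and 1.14 in KO 8h, against 0.81, 0.76 and 0.81 in Rescue 8h. The Rescue values lay inside the KO range, and the difference was -0.01 ± 0.34 (SE, 95% interval -0.74 to 0.73, adjusted p = 0.994 in limma).

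Krt8, Krt7, Plac1 and Ascl2 stayed far apart. Krt8 had 2.23, 2.41 and 1.47 in KO 8h, against 6.37, 6.20 and 6.13 in Rescue 8h, 18.3-fold lower (-4.19 ± 0.24, SE, adjusted p = 3.07e-07 in limma). Krt7 had -3.76, -2.50 and -4.48 in KO 8h, against 1.17, 1.26 and 1.09 in Rescue 8h (-4.75 ± 0.74, adjusted p = 0.000413). In both cases no KO array came near the Rescue arrays. Plac1 was well above background on 1 of 3 KO 8h arrays and averaged -5.32 ± 1.16 there, against 0.78 ± 0.06 in Rescue 8h (SD, n = 3, adjusted p = 7.24e-05 in limma). Ascl2 had 0.07, 1.39 and -0.06 in KO 8h, against 4.08, 3.82 and 3.66 in Rescue 8h, 10.5-fold lower (-3.39 ± 0.30, adjusted p = 4.15e-06).

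Gata3, Krt18 and Hand1 were lower in KO at 8h as well. Gata3 averaged 1.49 ± 0.27 in KO 8h and 3.08 ± 0.08 in Rescue 8h (SD, n = 3), a difference of -1.59 ± 0.24 (SE, adjusted p = 0.000347 in limma). Krt18 had 5.07, 5.45 and 5.47 in KO 8h, against 7.22, 7.39 and 7.34 in Rescue 8h, 3.96-fold lower (-1.98 ± 0.15, SE, adjusted p = 2.04e-06). Hand1 had -0.71, -1.06 and -1.47 in KO 8h, against 1.42, 0.66 and 0.63 in Rescue 8h. The Hand1 arrays did not overlap, and the difference was -1.98 ± 0.51 (adjusted p = 0.0125). That call was lost under quantile normalization (adjusted p = 0.0742), with no scaling (0.105), without replicate c of KO 8h (0.0523) and without replicate a of Rescue 8h (0.0561).

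Tfap2a was the 1 gene higher in KO at 8h, with -2.62, -3.05 and -2.94 in KO 8h, against -3.56, -3.86 and -3.51 in Rescue 8h. The groups did not overlap, and the difference was 0.78 ± 0.19 (SE, adjusted p = 0.0092 in limma). It did not pass under quantile normalization (adjusted p = 0.641), with no scaling (0.166), with the mean of the gene's probes (0.0604) or without replicate a of KO 8h (0.052), and under normexp it was 0.38 (adjusted p = 0.0218).

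At 8h2h 7 of the 9 genes were lower in KO than in Rescue and 0 were higher, where 21.8% of all tested genes were called (9.55% higher, 12.3% lower), and the 7 calls held without replicate b of KO 8h2h. Krt8 had 2.16, 2.27 and 1.68 in KO 8h2h, against 6.37, 6.21 and 6.12 in Rescue 8h2h (-4.19 ± 0.24, SE, adjusted p = 6.97e-07 in limma). Krt7 had -3.73, -0.46 and -3.79 in KO 8h2h, against 1.40, 1.61 and 1.18 in Rescue 8h2h (-4.06 ± 0.74, adjusted p = 0.00135). The high KO value of Krt7 came from replicate b, and without that array the difference was -5.16 ± 0.52 (adjusted p = 1.25e-05). The same array gave Plac1 its high value, -1.93 beside -6.04 and -5.12 on the other KO 8h2h arrays, against 0.95, 0.89 and 0.96 in Rescue 8h2h (-5.29 ± 0.77, adjusted p = 0.000233, and -3.42 and still called under normexp). Replicate b was the only KO 8h2h array with Plac1 well above background, so that without it the KO level is only a bound.

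Krt18 at 8h2h had 4.83, 4.88 and 5.06 in KO, against 7.05, 7.29 and 7.12 in Rescue, 4.70-fold lower (-2.23 ± 0.15, SE, adjusted p = 1.40e-06 in limma). Gata3 was 2.74-fold lower (adjusted p = 0.000669), Ascl2 5.48-fold (adjusted p = 5.90e-05) and Hand1 4.84-fold (adjusted p = 0.00549). The Hand1 call was lost with no scaling (adjusted p = 0.0629). Cdx2 had -0.44, -0.37 and -0.50 in KO, against -0.36, -0.11 and -0.25 in Rescue. These arrays lay side by side without overlap, but the difference of -0.20 ± 0.34 (95% interval -0.93 to 0.53) did not pass the test (adjusted p = 0.73). Tfap2a did not pass it either (0.15 ± 0.19, adjusted p = 0.626).

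**Figure D2:**
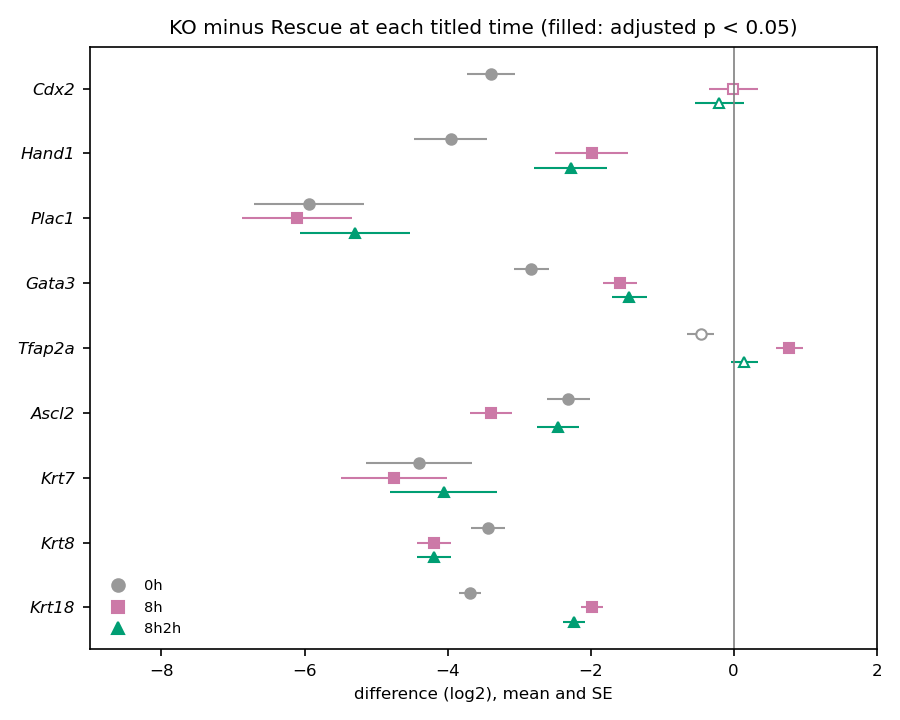
Difference between KO and Rescue (log2, horizontal axis) for the 9 tested genes at 0h, 8h and 8h2h, with bars for the SE and filled symbols where the adjusted p was below 0.05; for Cdx2, Hand1 and Plac1 at 0h the KO signal was not well above background, so the plotted differences use measured signals and are no folds. The Cdx2 difference moved to -0.01 at 8h, the Krt18 difference to -1.98, and the Krt8 difference to -4.19.

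The change from 0h was then taken within each line. In KO, 4 of the 9 genes were higher at 8h than at 0h and 1 was lower, where 25.4% of all tested genes were called. In Rescue, 3 were higher and 1 was lower, where 29.1% of all tested genes were called. All 5 ERK outputs on a fixed list (Dusp6, Spry2, Spry4, Egr1 and Etv4) were higher at 8h than at 0h in both lines. At 8h2h against 8h, 4 of the 5 were lower and 0 higher in each line, with a median difference of -4.41 in KO and -4.02 in Rescue. Of all tested genes 7.35% were called there in KO and 2.88% in Rescue. Read with the protocol, the titles put the Mek inhibitor on the arrays titled 8h2h, and the source names put it on those titled 8h. For 8h against 0h the median difference of all tested genes without the scaling was 0.28 in KO and 0.29 in Rescue. With the scaling it was -0.04 and -0.05, so the changes from 0h are relative to the 75th percentile.

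Cdx2 rose in both lines. In KO it averaged 0.79 ± 0.37 at 8h, against -5.38 ± 1.00 at 0h (SD, n = 3), which is at least 37.5-fold higher (adjusted p = 1.61e-08 in limma). In Rescue it averaged 0.79 ± 0.03 at 8h, against -1.99 ± 0.11 at 0h, 6.89-fold higher (2.79 ± 0.34, SE, adjusted p = 2.64e-05). The levels at 8h did not differ beyond the spread between arrays, and those at 0h did. The difference between the 2 changes passed the test (3.39 ± 0.48, adjusted p = 0.00206), where 2.28% of all tested genes were called, and its size rests on KO 0h signals that were not well above background: under normexp it was 1.34 (adjusted p = 0.00346). Within slides a, b and c it was 3.57, 1.96 and 4.63.

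Hand1 rose in both lines as well and stayed lower in KO. In KO it averaged -1.08 ± 0.38 at 8h, against -5.95 ± 1.22 at 0h (SD, n = 3), at least 10.3-fold higher (adjusted p = 6.75e-06 in limma). In Rescue it averaged 0.90 ± 0.45 at 8h, against -1.99 ± 0.78 at 0h, 7.44-fold higher (2.89 ± 0.51, SE, adjusted p = 0.000644). The difference between the changes was not called (adjusted p = 0.238), but it was called without replicate b of KO 0h (adjusted p = 0.0204). Other mesoderm genes moved between 0h and 8h, where 25.4% of all tested genes were called in KO and 29.1% in Rescue. Of 8 tested mesoderm markers 6 were higher and 1 lower at 8h than at 0h in each line. Eomes is on this list and also on the list of other trophoblast genes read further below. Their summed level, in multiples of the array's 75th percentile signal, was 23.6 to 42.9 on the KO 8h arrays against 4.72 to 5.30 at 0h, and 13.7 to 19.8 on the Rescue 8h arrays against 3.34 to 4.35. On the 8h2h arrays it was 3.76 to 5.08 in KO and 4.23 to 5.48 in Rescue. The part of mesoderm-like cells in the Hand1 signal was not tested.

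Krt18 and Gata3 rose in KO. Krt18 had 5.07, 5.45 and 5.47 in KO 8h, against 3.05, 3.27 and 2.62 in KO 0h. The groups were well separated, and the rise was 5.11-fold (2.35 ± 0.15, SE, adjusted p = 8.25e-08 in limma). In Rescue, Krt18 had 7.22, 7.39 and 7.34 at 8h, against 6.70, 6.73 and 6.56 at 0h, 1.57-fold higher (0.65 ± 0.15, adjusted p = 0.00532, and 0.99 with no scaling). The rise was larger in KO by 1.70 ± 0.22 (adjusted p = 0.000985; 1.50, 1.53 and 2.08 within slides a, b and c), a call lost only with no scaling among the alternatives run (1.68, adjusted p = 0.117). Gata3 was 2.33-fold higher in KO at 8h than at 0h (1.22 ± 0.24, adjusted p = 0.00181), though not when only the arrays compared entered the fit (adjusted p = 0.0515). In Rescue its difference was -0.02 ± 0.24 (95% interval -0.54 to 0.50, adjusted p = 0.963). The Gata3 changes of the 2 lines were not shown to differ (adjusted p = 0.0881), except without replicate b of KO 0h (0.00142) and with a trended robust variance prior (0.0446).

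Krt8, whose protein pairs with that of Krt18, did not pass the test in KO. Krt8 had 2.23, 2.41 and 1.47 in KO 8h, against 2.50, 2.22 and 1.84 in KO 0h, with overlapping arrays (-0.15 ± 0.24, SE, 95% interval -0.66 to 0.36, adjusted p = 0.721 in limma). In Rescue it had 6.37, 6.20 and 6.13 at 8h, against 5.83, 5.68 and 5.36 at 0h. Those arrays did not overlap, but the difference of 0.60 ± 0.24 missed the threshold (adjusted p = 0.073). With the slide as a block it passed (adjusted p = 0.00681), and also with only the arrays compared (0.0273), under normexp (0.0341), with a trended robust prior (0.043) and without replicate c of KO 8h (0.0295).

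Krt7 and Plac1 did not pass in either line at 8h against 0h, with Krt7 at 0.20 ± 0.74 in KO (adjusted p = 0.889 in limma) and 0.55 ± 0.74 in Rescue (adjusted p = 0.652). The Rescue arrays of Krt7 were 1.17, 1.26 and 1.09 at 8h, against 0.61, 0.65 and 0.61 at 0h. Both groups were tight and did not overlap, and the wide SE came from the KO arrays, since 1 spread per gene was fitted over all groups: with only the 6 arrays compared, the adjusted p was 0.0091. Plac1 differed by 1.24 ± 0.77 in Rescue (adjusted p = 0.263), and it passed with only the arrays compared (0.00223), under normexp (0.011), under quantile normalization (0.0476) and without replicate b of KO 8h2h (0.0331). In KO, Plac1 differed by 1.07 ± 0.77 (adjusted p = 0.366) and passed only under quantile normalization (0.017), with the gene well above background on 1 of 3 KO 8h arrays and on 0 of 3 KO 0h arrays.

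Ascl2 and Tfap2a moved down, each in 1 line. Ascl2 had 0.07, 1.39 and -0.06 in KO 8h, against 1.34, 1.93 and 1.74 in KO 0h. Replicate b of KO 8h lay inside the range of KO 0h, and the fall was 2.30-fold (-1.20 ± 0.30, SE, adjusted p = 0.00782 in limma). It was lost with no scaling (adjusted p = 0.129) and with only the arrays compared (0.0895). In Rescue the Ascl2 difference was -0.12 ± 0.30 (adjusted p = 0.817), and the changes of the lines were not shown to differ (adjusted p = 0.279), except without replicate b of KO 8h (-1.54, adjusted p = 0.00736).

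Tfap2a was 2.30-fold lower in Rescue 8h than in Rescue 0h (-1.20 ± 0.19, SE, adjusted p = 0.000256 in limma), a call lost under quantile normalization (0.348) and with no scaling (0.133), and -0.73 under normexp. In KO it differed by 0.03 ± 0.19 (adjusted p = 0.933). The difference between the 2 changes was 1.24 ± 0.27 (adjusted p = 0.0262 in limma). This call was lost in 12 of the 29 alternatives run, 7 of them by leaving out 1 array. Under normexp the difference was 0.65 and still called (adjusted p = 0.0398). The other kept probe of Tfap2a gave -0.72 ± 0.36 in Rescue, which did not pass (adjusted p = 0.173).

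**Figure D3:**
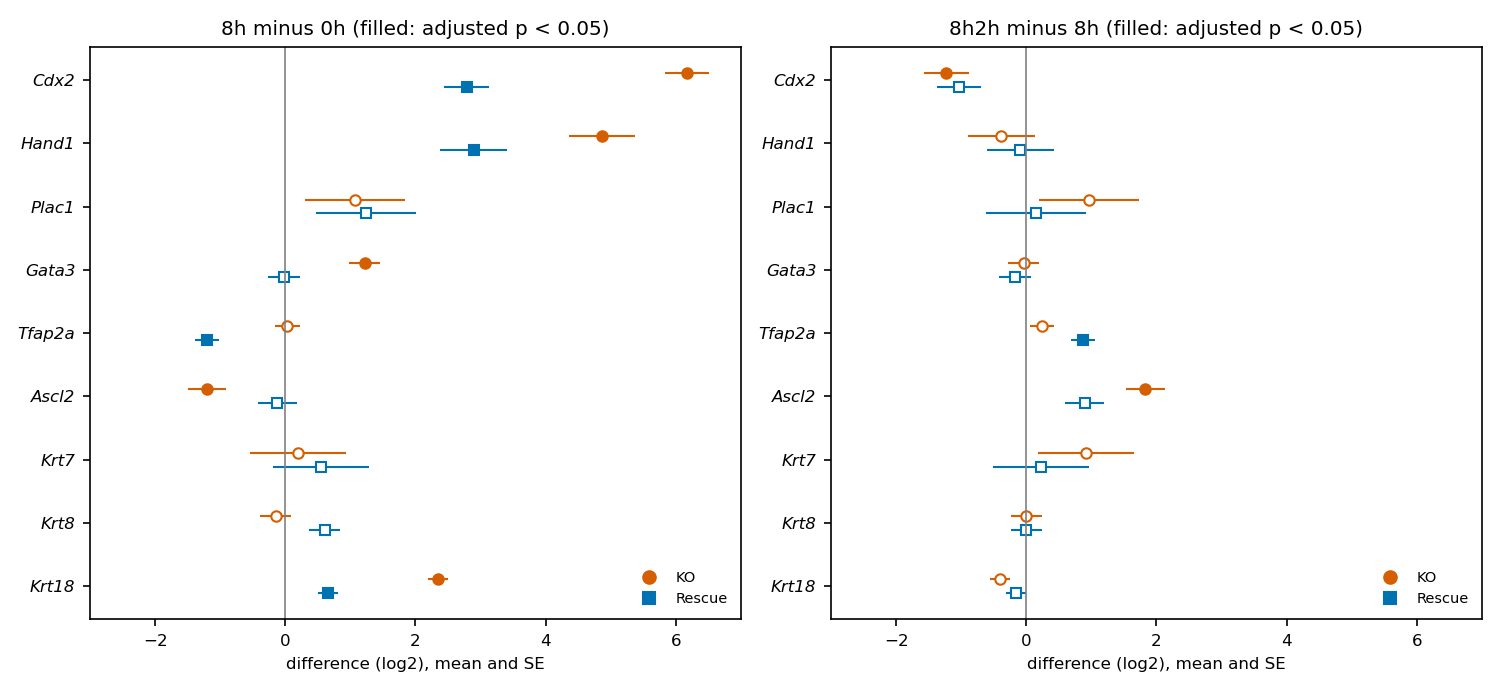
Changes (log2, horizontal axes) of the 9 tested genes at 8h against 0h on the left and at 8h2h against 8h on the right, for KO (circles) above Rescue (squares), with bars for the SE and filled symbols where the adjusted p was below 0.05. Krt18 changed by 2.35 in KO and 0.65 in Rescue at 8h, whereas Krt8 changed by -0.15 in KO and 0.60 in Rescue.

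Few genes changed between 8h and 8h2h. In KO, 2 of the 9 passed, where 7.35% of all tested genes were called (4.14% higher, 3.20% lower). Ascl2 had 2.14, 2.54 and 2.21 in KO 8h2h, against 0.07, 1.39 and -0.06 in KO 8h. All 8h2h values lay above all 8h values, and the rise was 3.56-fold (1.83 ± 0.30, SE, adjusted p = 0.00161 in limma), lost only with just the arrays compared (0.156). Cdx2 was 2.34-fold lower (-1.23 ± 0.34, adjusted p = 0.0435), and this call was lost in 20 of the 29 alternatives, among them the slide block (0.0501) and leaving out replicate b of KO 8h2h (0.0822).

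In Rescue, 1 of the 9 passed between 8h and 8h2h, where 2.88% of all tested genes were called (1.43% higher, 1.45% lower). It was Tfap2a, which was 1.83-fold higher at 8h2h (0.87 ± 0.19, SE, adjusted p = 0.0217 in limma), with -2.61, -2.84 and -2.87 at 8h2h, against -3.56, -3.86 and -3.51 at 8h. The arrays did not overlap, yet leaving out any 1 of these 6 arrays ended the call (adjusted p = 0.0511 to 0.123). It was lost in 11 of the 29 alternatives in all, the others being normexp (0.38, adjusted p = 0.104), quantile normalization (1), no scaling (0.652), the mean of the gene's probes (0.0956) and a trended robust variance prior (0.0552). Cdx2 had -0.36, -0.11 and -0.25 in Rescue 8h2h, against 0.81, 0.76 and 0.81 in Rescue 8h, a difference of -1.03 ± 0.34 that did not pass (adjusted p = 0.165) but passed with only the arrays compared (0.0016), under normexp (0.00143) and without replicate b or c of KO 0h (0.0183 and 0.0236). Ascl2 differed by 0.90 ± 0.30 (adjusted p = 0.165), and it passed with only the arrays compared (0.017) and without replicate b of KO 8h (0.0115). For the difference between the lines in this step, 0 of the 9 genes were called in limma, 2 had an unadjusted p below 0.05, and 0.0562% of all tested genes were called (0.0499% higher, 0.00624% lower).

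Against 0h, the arrays titled 8h2h still had 4 of the 9 genes higher in KO, where 22.4% of all tested genes were called, and 3 higher in Rescue, where 21.3% were. In KO, Cdx2 was at least 16.0-fold higher (-0.44 ± 0.06 against -5.38 ± 1.00, SD, n = 3, adjusted p = 2.49e-07 in limma) and Hand1 at least 7.88-fold higher (-1.46 ± 0.34 against -5.95 ± 1.22, adjusted p = 2.34e-05). Krt18 was 3.84-fold higher in KO (adjusted p = 9.21e-07) and Gata3 2.26-fold (adjusted p = 0.00304), and the Gata3 call was lost with only the arrays compared (0.108). These 4 calls held without replicate b of KO 8h2h. In Rescue, Cdx2 was 3.37-fold higher (1.75, adjusted p = 0.00198, and 1.14 under normexp) and Hand1 6.99-fold (adjusted p = 0.00121). Krt18 was 1.41-fold higher in Rescue (adjusted p = 0.0351), a call that ended when any 1 of the 6 arrays compared was left out (0.0505 to 0.129), with no scaling (0.0537) and with no filter on dim probes (0.0648).

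Other genes of this comparison missed the threshold and crossed it under some settings. With the slide as a block Krt8 (0.61, adjusted p = 0.00905 in limma) and Ascl2 (0.77, adjusted p = 0.0439) were also higher in Rescue 8h2h than in Rescue 0h, and Plac1 (2.03, adjusted p = 0.0424) was higher in KO 8h2h than in KO 0h. The Plac1 difference rests on replicate b of KO 8h2h, the only KO 8h2h array with the gene well above background, and no KO 0h array had it well above background, so it is not a measured fold. Without that array, and with no block, it did not pass (adjusted p = 0.244).

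The parting of Krt18 and Krt8 was also read within each array, where any scaling of the array cancels. This ratio was chosen after the values had been seen. The log2 signal of Krt18 minus that of Krt8, which has no meaning as a level because the probes differ, was 2.84, 3.03 and 4.01 in KO 8h, against 0.55, 1.05 and 0.78 in KO 0h. The KO groups did not overlap, and the shift was 2.50. In Rescue it was 0.86, 1.19 and 1.21 at 8h, against 0.87, 1.06 and 1.19 at 0h, so those groups overlapped, with a shift of 0.05. At 8h2h it averaged 2.88 ± 0.43 in KO and 0.92 ± 0.21 in Rescue (SD, n = 3). For KO 8h against KO 0h and for KO against Rescue at 8h and at 8h2h, the two-sided exact permutation test gave p = 0.1, the smallest that 3 against 3 arrays allow, and 0.225 when adjusted over the 9 comparisons made. At 0h the ratio did not separate the lines (0.79 ± 0.25 in KO and 1.04 ± 0.16 in Rescue, exact p = 0.2).

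**Figure D4:**
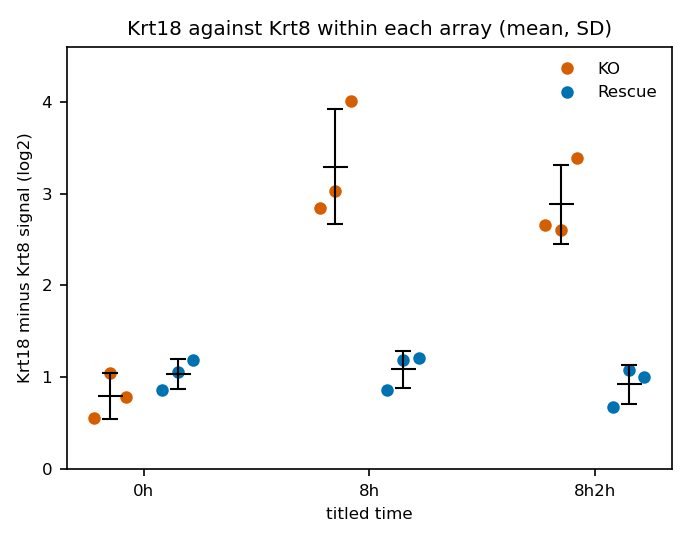
Krt18 minus Krt8 signal within each array (log2, vertical axis) by titled time, with KO left of Rescue and the mean and SD of 3 arrays. KO arrays lay between 2.61 and 4.01 at 8h and 8h2h, above the range of 0.55 to 1.05 in KO 0h, while the Rescue arrays stayed between 0.68 and 1.21 at all times.

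Elf5, a factor of trophoblast stem cells, was dim throughout. It was well above background on 0, 1 and 1 of 3 KO arrays at 0h, 8h and 8h2h, and on 0, 3 and 3 of 3 Rescue arrays. The KO arrays that read it were replicate a at 8h (-2.27) and replicate b at 8h2h (-2.14), against -5.27, -5.07 and -4.72 in Rescue 8h. On the other KO arrays it lay between -6.59 and -4.41. One Rescue 8h2h spot was marked as an outlier, which kept the gene out of the main test. With that spot as a missing value, a choice made after seeing the data, Elf5 was fitted on 17 arrays beside 16069 genes, and no contrast passed. The lowest adjusted p was that of Rescue 8h against Rescue 0h (2.23 ± 0.82, SE, adjusted p = 0.0576 in limma), and since no Rescue 0h array read the gene, this value is not a measured fold.

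The order of the 6 groups differed between genes. Cdx2 ran by time: both 8h groups stood on top without separating, then both 8h2h groups, then Rescue 0h, then KO 0h at the bottom. Krt7, Krt8, Krt18, Plac1, Gata3 and Ascl2 ran by line, with every KO group below every Rescue group. Hand1 stood between these forms, with Rescue 8h and 8h2h on top, and KO 8h, KO 8h2h and Rescue 0h following with overlap between neighbours. Tfap2a varied over a narrow range in which Rescue 8h was lowest and the 5 other groups overlapped from one to the next. Centred on their own means, the 6 group means of Krt7 and Krt8 differed least among the pairs of the set (root mean square difference 0.446), followed by Gata3 and Krt18 (0.526), while Krt8 and Krt18 differed by 1.01.

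By the same measure over the 6 group means, the tested genes most like Krt18 were Fgf5 (0.168), Lcp1 (0.239) and Scarf2 (0.271), beside a median of 1.54 over all tested genes, with Fgf5 and Lcp1 well above background on 13 of the 18 arrays each. For Krt8 they were Fthl17a (0.36), Cdk14 (0.418) and Serpinb9f (0.429), where Cdk14 and Serpinb9f were well above background on 9 of the 18 arrays only. For Cdx2 they were Filip1l (0.532), Fhl2 (0.559) and Samd5 (0.574), and for Hand1 Igfbp6 (0.308), Mal (0.481) and Vgf (0.517). Filip1l, Samd5 and Mal were well above background on 15 of the 18 arrays each and Igfbp6 on 16, and Cdx2 and Hand1 themselves on no KO 0h array, so these ranks rest in part on signals that were not well above background. These values describe likeness of levels over 6 groups.

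Other genes of the trophoblast lineage were read from a list of 24, of which 21 were tested. At 0h 8 were lower and 4 higher in KO than in Rescue, with a median difference of -0.21. Of all tested genes 18.4% were called there (11.3% lower, 7.09% higher). Rhox9 and Rhox6, homeobox genes of the X chromosome expressed in placenta, were lower, with differences of -2.67 ± 0.37 (SE, adjusted p = 0.00017 in limma) and -2.61 ± 0.37 (adjusted p = 0.000207). Gjb5, a connexin gene of spongiotrophoblast, was higher by 2.19 ± 0.35 (adjusted p = 0.000622). At 8h 11 were lower and 2 higher in KO, led by Tfap2c, which encodes the AP-2 gamma factor of trophoblast stem cells (-2.98 ± 0.33, adjusted p = 2.77e-05), and at 8h2h 9 were lower and 2 higher. Of all tested genes 21.5% were called at 8h (12.4% lower) and 21.8% at 8h2h (12.3% lower).

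Between 0h and 8h 5 genes of that list were higher and 4 lower in KO, where 25.4% of all tested genes were called. In Rescue 6 of the list were higher and 2 lower, where 29.1% of all tested genes were called. The median difference over the list was -0.15 in KO and -0.01 in Rescue. The genes named next are among those higher in Rescue. Tead4, whose factor acts upstream of Cdx2 in the mouse embryo, was higher at 8h than at 0h in both lines, by 2.50 ± 0.24 in KO (SE, adjusted p = 3.01e-06 in limma) and 3.06 ± 0.24 in Rescue (adjusted p = 3.82e-07). Phlda2, an imprinted gene that limits placental growth, was higher by 2.08 ± 0.19 in Rescue at 8h (adjusted p = 1.58e-06), and its KO change was smaller (difference of the changes -1.61 ± 0.27, adjusted p = 0.00558). Plet1, a surface protein gene of trophoblast progenitors, was higher by 1.75 ± 0.19 in Rescue (adjusted p = 8.83e-06), and its KO change was smaller as well (-1.44 ± 0.27, adjusted p = 0.0117).

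Of 13 other keratin genes 12 were tested. Of all tested genes 18.4%, 21.5% and 21.8% were called between the lines at 0h, 8h and 8h2h (11.3%, 12.4% and 12.3% lower in KO). Of these keratins 4 were lower and 1 higher in KO than in Rescue at 0h, 6 and 0 at 8h, and 6 and 1 at 8h2h. Krt19, a type I chain of simple epithelia, was among them at 8h, with 2.41 as the mean of KO and 3.91 as that of Rescue (-1.50 ± 0.14, SE, adjusted p = 5.45e-06 in limma). At 8h against 0h 3 of the 12 were higher and 2 lower in KO (median 0.13), where 25.4% of all tested genes were called. In Rescue 5 were higher and 1 lower (median 0.29), where 29.1% were called. Among the higher ones, Krt19 rose by 1.05 ± 0.14 in KO (adjusted p = 4.56e-05 in limma) and 1.08 ± 0.14 in Rescue (adjusted p = 3.24e-05). Krt5, a chain of basal epidermis, rose by 3.03 ± 0.21 in KO (adjusted p = 1.21e-07) and 3.61 ± 0.21 in Rescue (adjusted p = 1.80e-08).

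Genes that anchor keratin filaments at cell junctions were tested for 11 of a list of 12. At 0h 3 were lower and 1 higher in KO, at 8h 5 and 1, and at 8h2h 6 and 0. Of all tested genes 18.4%, 21.5% and 21.8% were called at these times (11.3%, 12.4% and 12.3% lower in KO). Dsp, which encodes desmoplakin, the link between desmosomes and keratin filaments, was lower in KO, with differences of -1.41 ± 0.19 at 0h (SE, adjusted p = 0.000139 in limma), -2.37 ± 0.19 at 8h (adjusted p = 2.19e-06) and -2.15 ± 0.19 at 8h2h (adjusted p = 4.92e-06). At 8h against 0h 3 of the 11 were higher and 2 lower in KO (median 0.09), where 25.4% of all tested genes were called. In Rescue 6 were higher and 3 lower (median 0.39), where 29.1% were called. Plec, the gene of the linker plectin, was among the higher ones, by 2.91 ± 0.15 in KO (adjusted p = 1.17e-08 in limma) and 2.84 ± 0.15 in Rescue (adjusted p = 1.03e-08).

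Epithelial genes, all 18 of the list tested, were lower in KO in 12 cases at 0h, 11 at 8h and 11 at 8h2h, and higher in 0. Cldn7, a tight junction claudin, was lower, with differences of -2.05 ± 0.23 (SE, adjusted p = 4.31e-05 in limma) at 0h and -2.52 ± 0.23 (adjusted p = 6.40e-06) at 8h. Of 12 tested TEAD and YAP genes 7, 6 and 8 were lower in KO at 0h, 8h and 8h2h and 0, 1 and 0 were higher. Tead4 is on this list and also on that of the trophoblast lineage. Ccn1 and Ccn2, usual targets of YAP with TEAD factors, were lower at 0h, with differences of -2.01 ± 0.19 (adjusted p = 1.14e-05) and -1.66 ± 0.16 (adjusted p = 1.40e-05). These counts stand beside the 18.4%, 21.5% and 21.8% of all tested genes called between the lines at these times.

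Markers of other cells moved in part with these genes. Between the lines at 0h, where 18.4% of all tested genes were called, 5 of 8 embryonic stem cell markers were higher in KO and 0 lower. Of 9 primitive endoderm markers 1 was higher in KO and 4 lower. The summed level of the stem cell markers, in the same unit, overlapped between the lines, at 670 to 731 on the KO 0h arrays and 613 to 744 on the Rescue 0h arrays. That of primitive endoderm ran from 24.7 to 33.4 in KO 0h and from 13.9 to 18.5 in Rescue 0h. Of 6 tested fibroblast markers only Thy1 was called in any comparison, and it was not called between the lines at 0h. Their sum was 2.09 to 2.59 in KO 0h and 1.99 to 2.35 in Rescue 0h.

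These markers also moved with time. At 8h against 0h 25.4% of all tested genes were called in KO and 29.1% in Rescue, and at 8h2h against 0h 22.4% and 21.3%. Of the 8 stem cell markers 3 were lower and 1 higher at 8h than at 0h in KO, and 4 lower and 2 higher in Rescue. At 8h2h against 0h 5 were lower and 1 higher in KO, and 6 lower and 1 higher in Rescue. Their sum was 545 to 661 in KO 8h and 511 to 532 in Rescue 8h, and 476 to 597 in KO 8h2h and 452 to 531 in Rescue 8h2h. The fibroblast sum was 14.8 to 21.2 in KO 8h and 6.41 to 7.55 in Rescue 8h, and 9.46 to 14.8 in KO 8h2h and 4.82 to 5.61 in Rescue 8h2h, all above the 0h arrays. Thy1, a surface protein gene of fibroblasts and of other cells, was higher at 8h than at 0h by 3.10 ± 0.19 in KO (SE, adjusted p = 4.88e-08 in limma) and 1.92 ± 0.19 in Rescue (adjusted p = 3.78e-06), and higher in KO than in Rescue at 8h by 1.44 ± 0.19 (adjusted p = 0.000121). The other 5 fibroblast markers were not called in these comparisons. The part of these cells in the differences of trophoblast genes and keratins was not tested.

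Genes beside the 9 tested genes on the chromosome were read as well, a comparison added after seeing the data. Of 16 tested neighbours, taken from the order of genes in the RefSeq annotation, 4 were lower and 0 higher in KO than in Rescue at 0h, where 18.4% of all tested genes were called and 11.3% were lower. At 8h 7 were lower and 0 higher, where 21.5% were called and 12.4% were lower. At 8h against 0h 2 were higher and 2 lower in KO, where 25.4% were called, and 7 were higher and 2 lower in Rescue, where 29.1% were called.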

How the data were processed

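RNA from 18 mouse embryonic stem cell samples was read on 1-colour Agilent arrays. The deposited processed signal is an intensity that, per the file headers, the authors extracted with Agilent Feature Extraction 12.0.1.1, with background subtraction but without scaling of one array to another. Their table of values held this intensity at all 62976 spots. The deposited median spot and background intensities and the spot flags (other values) were also used. Per the submitters' labels the dye was Cy5, while the headers name 1 green channel.

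Probes were matched to RefSeq symbols by transcript name. Kept probes were those read well above background in all 3 replicates of 1 or more groups and free of outlier spots (107 named probes were not), and each gene was read from its brightest kept probe, giving 16022 genes. Log2 signals were set relative to the 75th percentile of their array. All 18 arrays entered a group-means model in limma 3.58.1 (R 4.3.3), with 11 contrasts, moderated two-sided tests and Benjamini-Hochberg adjustment over all genes, and calls at an adjusted p below 0.05. Where a group had no array well above background, folds are lower bounds under the rule given for Cdx2. The files hold no mean spot signal, so normexp, an alternative, used the median spot signal with an offset of 50. The procedure was tested on simulated data. The number of arrays limits the precision.

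The genes, the lists, the contrasts and the rule for named genes (all 10 genes, and from each list up to 3 called genes with the largest change per contrast) were chosen with earlier results of these data known. Replicates a, b and c were 3 slides, each with all 6 groups, and every group held 1 place on all slides, which means that group and place cannot be told apart. Figures were drawn with matplotlib 3.10.9. Probe coordinates were not used.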

Additional observations from a re-analysis of the deposited data

Results flagged for a closer look

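For 3 genes the change at 8h against 0h differed between the lines by a test of the difference itself (KO change minus Rescue change, limma, Benjamini-Hochberg adjusted over all tested genes). Cdx2 gave 3.39 ± 0.48 (SE, adjusted p = 0.00206, and between 4.67e-05 and 0.0287 over the 29 alternatives), with a KO 0h level that is only a bound. Krt18 gave 1.70 ± 0.22 (adjusted p = 0.000985, and between 0.000158 and 0.117 over the alternatives). Tfap2a gave 1.24 ± 0.27 (adjusted p = 0.0262, and between 0.00287 and 0.859 over the alternatives). Each had the same sign on 3 of 3 slides.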

How the results depend on the processing

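Each of 29 alternatives was applied to 99 differences (9 genes in 11 contrasts), 2871 values in all: 2685 kept direction and call, 68 lost a call, 46 gained one, 72 turned sign while not called and 0 turned sign with a call. The number of called genes moved by over 1.5 times in these cases. For Rescue 8h against 0h (4 called) it was 7 with only the arrays compared. For KO 8h against 0h (5) it was 3 with only the arrays compared. For Rescue 8h2h against 8h (1) it was 0 under quantile normalization, no scaling, the mean of a gene's probes and the trended robust prior, and 3 with only the arrays compared. For KO 8h2h against 8h (2) it was 1 under quantile normalization, the percentile over detected probes, no scaling, no filter and the replicate block, and 0 with only the arrays compared. For Rescue 8h2h against 0h (3) it was 7 under normexp, 5 with the replicate block and 7 with only the arrays compared. For the difference between the lines at 8h (3) it was 1 with no scaling. Leaving out 1 array at a time gave 0 to 2 called genes for Rescue 8h2h against 8h and 1 to 2 for KO 8h2h against 8h; in the other contrasts, in the order of the report, it gave 8 to 9, 7 to 8, 7 to 7, 5 to 5 (KO 8h against 0h), 4 to 5 (Rescue 8h against 0h), 4 to 5, 2 to 4, 2 to 4 (lines at 8h) and 0 to 0. Arrays of 1 replicate letter shared a slide, and the labels do not say whether they also shared a culture. Same-slide deviations correlated at r over 0.1 in 28 of 45 pairs, and 18 of 18 arrays correlated best with their own slide. That is a hint of pairing from the data and not from the design. With the slide as a replicate block 9, 8 and 7 genes were called between the lines at 0h, 8h and 8h2h. With no scaling the share of all called genes that were higher was 95.6% for KO 8h2h against 0h, in place of 49.2%, 90.8% in place of 49.3% for Rescue 8h2h against 0h, 79.2% in place of 46.9% for KO 8h against 0h, 80.7% in place of 44.7% for Rescue 8h against 0h, 74.4% in place of 56.4% for KO 8h2h against 8h, 64.2% in place of 43.8% for KO against Rescue at 8h2h, and 25.9% in place of 46.8% for the difference between the lines at 8h. All genes called between KO and Rescue numbered 2941, 3450 and 3493 at 0h, 8h and 8h2h, and 1011, 1211 and 1264 with no scaling. The outlier spot as a missing value, and the fits without replicate b of KO 8h2h as a doubted array, were chosen after seeing the data. Signal over background limits Cdx2, Hand1 and Plac1 in KO 0h and Elf5 in most groups.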
